A study of Solanum lycopersicum with 4 samples.

Results

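10 tomato identifiers listed for the last steps of gibberellin metabolism are described here, in shoot apical meristems of wild-type Solanum lycopersicum: 4 listed as GA20-oxidases, 2 as GA3-oxidases and 4 as GA2-oxidases, out of 34722 genes in the table. They were chosen by matching the first 14 characters of each identifier, and all 10 were found. Gene expression was measured by RNA sequencing of total RNA in 4 libraries. The transitional group was made of libraries A and B (n = 2), from apices at the change to flowering, and the vegetative group of libraries C and D (n = 2), from apices that were still making leaves and had made 6 of them. Both groups were wild type, with no agent named before fixation, and the labels give the same range of 2 to 12 days of greenhouse growth for all, so the age of each stage is not known. Seedlings were fixed in acetone before the meristem was cut out. The labels name no cultivar and do not say how many meristems went into a library, or whether replicates came from separate plants. The spread on which the p-values rest is that between these libraries, and it may be technical.

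Gibberellins are growth hormones whose active level is set by a short chain of enzymes. GA20-oxidases carry out successive oxidations that give the direct precursors of the active hormone, GA3-oxidases turn those precursors into active gibberellin, and GA2-oxidases inactivate both. KNOX proteins of the meristem lower GA20-oxidase transcripts in tobacco and raise GA2-oxidase transcripts in maize, and in many plants active gibberellin itself lowers the transcripts of the enzymes that make it. The comparison of the stages asks how transcripts of these steps differ between a wild-type meristem at floral transition and a vegetative one.

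The libraries held 16141074 to 23043526 reads in genes. Values are reads per gene, each library divided by its own size factor, called normalised counts below, and 1 read was worth 0.978 to 1.38 of them. Gene length is not in the table, so values are compared between libraries and not between genes. All 3 identifiers listed as meristem genes were read in every library, with summed values of 7745 and 6898 in transitional A and B and 8817 and 8434 in vegetative C and D. In each library 1 identifier held most of that sum. Their log2 changes were -0.97, -0.24 and 0.47, and 1 of them fell at the transition (limma, adjusted p under 0.05). Of 5 listed as genes of the inflorescence and flower meristem, 3 rose at the transition by the same test. Over all tested genes, 2.7% rose and 1.19% fell. The identifiers of the meristem, flower, leaf and wound lists were entered from memory of the published names and are unverified. The enzyme class of each member comes with the list. No identifier of the table is paired with a name in the tomato gene table of RefSeq (assembly SLM_r2.1). For all 10 members, that table does hold a gene of the same class on the chromosome named in the identifier, which is a check of the class and chromosome only.

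Transcripts of a pair of GA20-oxidase genes rose steeply at floral transition, by 14.9-fold and 23.8-fold on the log2(value + 1) scale. A pair of adjacent GA2-oxidase genes stood lower in the transitional than in the vegetative libraries without passing the test, and GA3-oxidase transcripts were barely read at either stage. Only 4 of the 10 members had the mean of at least 5 normalised counts needed for testing, and in each of these 4 both group means were above 5. The other 6 are given by their reads. Of the tested members, 2 rose and none fell (limma, Benjamini-Hochberg adjusted p under 0.05), where 2.7% of the 19607 genes tested rose and 1.19% fell. In bulk tissue, fewer cells that express a gene and less RNA per cell cannot be told apart.

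Among the GA20-oxidases, Solyc03g006880.2, on chromosome 3 by its identifier, had 163 and 105 normalised counts in transitional libraries A and B, against 12.4 and 4.89 in vegetative C and D. Both transitional libraries stood far above both vegetative ones, a separation without overlap that 25% of tested genes showed in this direction. The vegetative values rested on 9 and 5 reads. It averaged 134 ± 41.0 in transitional and 8.65 ± 5.32 in vegetative meristems (SD, n = 2 each). The log2 change was 3.89 (SE 0.45, 95% interval 2.84 to 4.94, limma adjusted p = 0.00636). By reads alone, 265 in the transitional group against 14 in the vegetative one gave a ratio of 16.7 with an exact 95% interval of 9.80 to 31.0, which covers counting error only.

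Solyc06g035530.2, a GA20-oxidase on chromosome 6 by its identifier, had 209 and 126 normalised counts in transitional libraries A and B, against 11.0 and 2.93 in vegetative C and D. The stages again did not overlap, and the vegetative values rested on 8 and 3 reads. Its mean was 168 ± 58.2 in transitional and 6.99 ± 5.73 in vegetative meristems (SD, n = 2 each). The log2 change was 4.57 (SE 0.54, 95% interval 3.30 to 5.84, limma adjusted p = 0.0069). The ratio of reads was 26.6, with an exact 95% interval of 14.7 to 53.8 for counting error. Ranked by log2 change, this gene was number 33 from the top of the 19607 tested and Solyc03g006880.2 was number 65.

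Both GA20-oxidase calls held under edgeR on the recovered reads (adjusted p = 0.00674 for Solyc03g006880.2 and 0.00634 for Solyc06g035530.2, where 2.47% of tested genes rose) and under DESeq2 (3.04%), and were lost without either vegetative library. Without vegetative C the limma adjusted p was 0.124 for Solyc03g006880.2 and 0.117 for Solyc06g035530.2, and without D it was 0.165 and 0.145 in the same order; limma then called 0 of the 19607 genes, with 1577 and 1867 at an unadjusted p under 0.05. The log2 changes of the 4 fits that left out 1 library ran from 3.30 to 4.49 for Solyc03g006880.2 and from 3.76 to 5.38 for Solyc06g035530.2. Without the filter on low values the adjusted p was 0.084 and 0.088, and the smaller number of calls over all genes is given in the closing section.

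**Figure D1:**
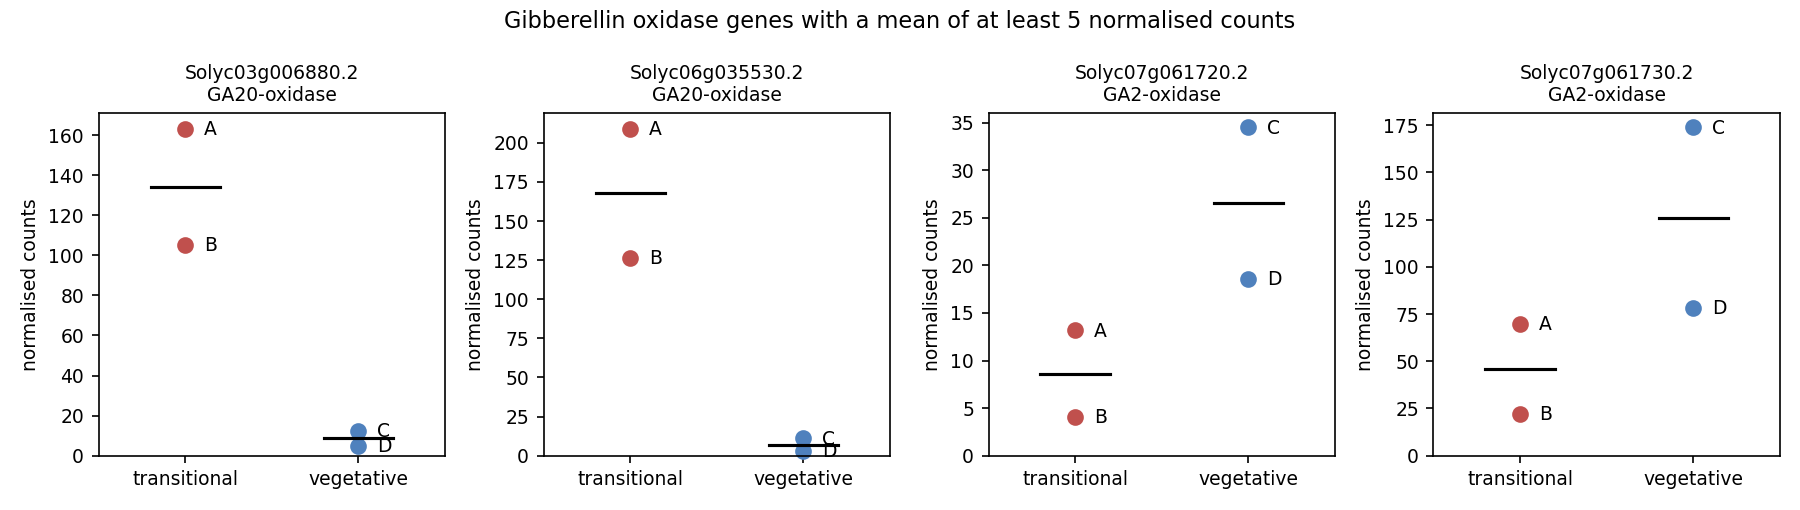
Normalised counts (vertical axes, linear, from 0) of the 4 tested members in each library, transitional A and B in red and vegetative C and D in blue, with a bar at each group mean. The GA20-oxidases lie between 105 and 209 in the transitional libraries and between 2.93 and 12.4 in the vegetative ones. The GA2-oxidases lie lower in the transitional libraries, with replicates far apart.

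The remaining GA20-oxidases were close to silent. Solyc01g093980.2 had 3 reads in transitional A and none in transitional B or in either vegetative library. Solyc11g072310.1 had 1 read in transitional B and 1 in vegetative D, and none in transitional A or vegetative C. A count of 0 allows a level of up to 2.93 to 4.14 normalised counts, depending on the library (3 reads, counting error only), so no difference between the stages could be seen for either at this depth. The summed GA20-oxidase value was 375 and 233 in transitional A and B, against 23.5 and 8.80 in vegetative C and D, a log2 ratio of 4.36. Over all libraries the 4 identifiers of this step held 626 reads.

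At the next step, the GA3-oxidases, only 1 read was found among 83256368 reads in genes over the 4 libraries. It belonged to Solyc06g066820.2, which had 1 read in transitional A and none in transitional B, vegetative C or vegetative D. Solyc03g119910.2 had no read in any library. Neither could be tested, and the limit of 2.93 to 4.14 normalised counts per library applies to both, so a difference between the stages was not detectable for either at this depth.

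Both tested GA2-oxidases, enzymes that inactivate gibberellin, had lower values in the transitional libraries. Solyc07g061730.2, on chromosome 7 by its identifier, had 69.9 and 22.3 normalised counts in transitional libraries A and B, against 174 and 78.3 in vegetative C and D. Every transitional value lay below every vegetative one, but transitional A was close to vegetative D. It averaged 46.1 ± 33.7 in transitional and 126 ± 67.6 in vegetative meristems (SD, n = 2 each). The log2 change was -1.54 (SE 0.56, 95% interval -2.85 to -0.22) and did not pass the test (limma adjusted p = 0.213).

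Its neighbour Solyc07g061720.2, the identifier next to it in the table with none between, had 13.2 and 4.05 normalised counts in transitional libraries A and B, against 34.5 and 18.6 in vegetative C and D. The groups again did not overlap, as was the case for 24.3% of all tested genes in this direction. The mean was 8.61 ± 6.46 in transitional and 26.5 ± 11.2 in vegetative meristems (SD, n = 2 each), and the 4 transitional and vegetative values rested on 13, 4, 25 and 19 reads in A, B, C and D. Its log2 change was -1.64 (SE 0.60, 95% interval -3.05 to -0.23, limma adjusted p = 0.214). limma called 0 of the pair lower, as did edgeR and DESeq2, which called 1.06% and 1.62% of tested genes lower, while both had an unadjusted p under 0.05 by limma, as had 7.91% of tested genes in this direction.

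The transitional replicates of the GA2-oxidase pair lay about as far apart as the stages, which differed by a factor of 0.345 for Solyc07g061730.2 and 0.321 for Solyc07g061720.2 on the log2(value + 1) scale. Solyc07g061730.2 stood 3.14 times as high in A as in B (exact 95% counting interval 1.92 to 5.33) and 2.22 times as high in C as in D (1.67 to 2.98), both beyond counting error. For Solyc07g061720.2 these ratios were 3.26 (1.01 to 13.7) and 1.86 (0.982 to 3.56). Without transitional A the log2 change of Solyc07g061730.2 was -2.34 and limma called it lower (adjusted p = 0.0498, in a fit that called 2.44% of genes lower and 3.29% higher), and without transitional B it was -0.73 (adjusted p = 0.425). Solyc07g061720.2 moved in the same way, to -2.39 without A (adjusted p = 0.06) and -0.90 without B (adjusted p = 0.363). Without C the changes were -0.96 for Solyc07g061730.2 and -1.21 for Solyc07g061720.2, and without D they were -2.11 and -2.07.

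**Figure D2:**
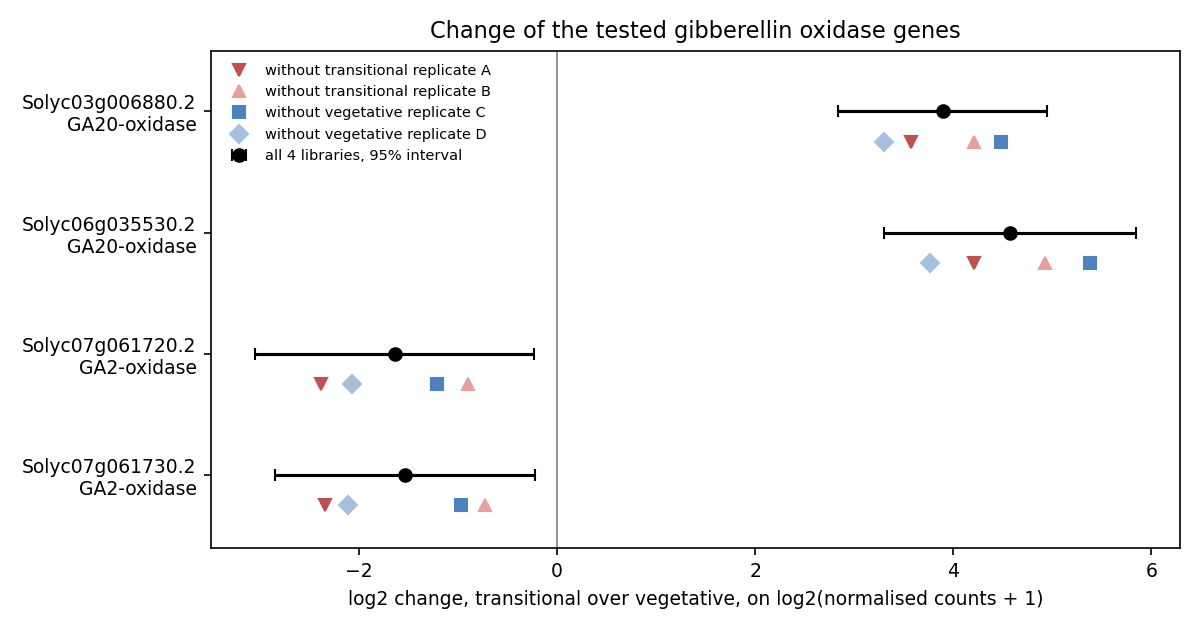
Log2 change (horizontal axis, transitional over vegetative, on log2(normalised counts + 1)) of the 4 tested members. Black points and bars give limma's estimate and 95% interval with all 4 libraries, and the coloured symbols the estimate without 1 library each. No estimate crosses 0: the GA20-oxidases run from 3.30 to 5.38 and the GA2-oxidases from -2.39 to -0.73 when a library is left out.

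The proportion of the adjacent GA2-oxidase genes to each other lay between 4.21 and 5.50 in the libraries. The value of Solyc07g061730.2 divided by that of Solyc07g061720.2 was 5.31 and 5.50 in transitional A and B, against 5.04 and 4.21 in vegetative C and D. On the log2 scale the stages differed by 0.23 in this ratio, with SDs of 0.04 in transitional and 0.18 in vegetative meristems (n = 2 each). Solyc07g061720.2 rested on 13 and 4 reads in transitional A and B, and on 25 and 19 in vegetative C and D. With so few reads, these values cannot show whether the proportion is steady. The sources used here do not say how reads that match both of a pair of similar genes were counted, so the separate values of this pair are uncertain. For the GA20-oxidase pair, Solyc06g035530.2 divided by Solyc03g006880.2 was 1.28 and 1.20 in transitional A and B, against 0.889 and 0.6 in vegetative C and D, where few reads decide. The stages differed by 0.76 in its log2 ratio, with SDs of 0.06 in transitional and 0.40 in vegetative meristems (n = 2 each). The size of such a ratio depends on gene length, and only its change between libraries is read here.

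Of the other GA2-oxidases, Solyc07g056670.2 had 3.04 and 5.06 normalised counts in transitional libraries A and B, against 8.28 and 0 in vegetative C and D. With a mean of 4.09 it lay just under the filter, and the stages overlapped. The ratio of its reads, 8 in the transitional group against 6 in the vegetative one, was 1.18 with an exact 95% interval of 0.359 to 4.12. Solyc05g053340.2 had no read in any library. The summed GA2-oxidase value was 86.2 and 31.4 in transitional A and B, against 217 and 96.8 in vegetative C and D, a log2 ratio of -1.48 that ran from -2.21 without transitional A to -0.75 without transitional B.

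Set against each other within a library, the GA20-oxidase and GA2-oxidase steps gave a ratio that was higher in both transitional libraries than in both vegetative ones. The log2 ratio of the summed GA20-oxidase to the summed GA2-oxidase value was 2.12 and 2.89 in transitional A and B, against -3.21 and -3.46 in vegetative C and D. Such a ratio does not depend on the size factor of a library. Its sign and size depend on gene length, which is not known here, so only its change between libraries is read. In vegetative C and D the GA20-oxidase sum rested on 17 and 9 reads, so the vegetative ratios are poorly fixed by depth. The mean log2 ratio was 2.51 ± 0.54 in transitional and -3.33 ± 0.18 in vegetative meristems (SD, n = 2 each), a difference of 5.84 on the log2 scale. This is a description without a test, since the members were chosen with results of these data known, and the sums are weighted towards the members with most reads.

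**Figure D3:**
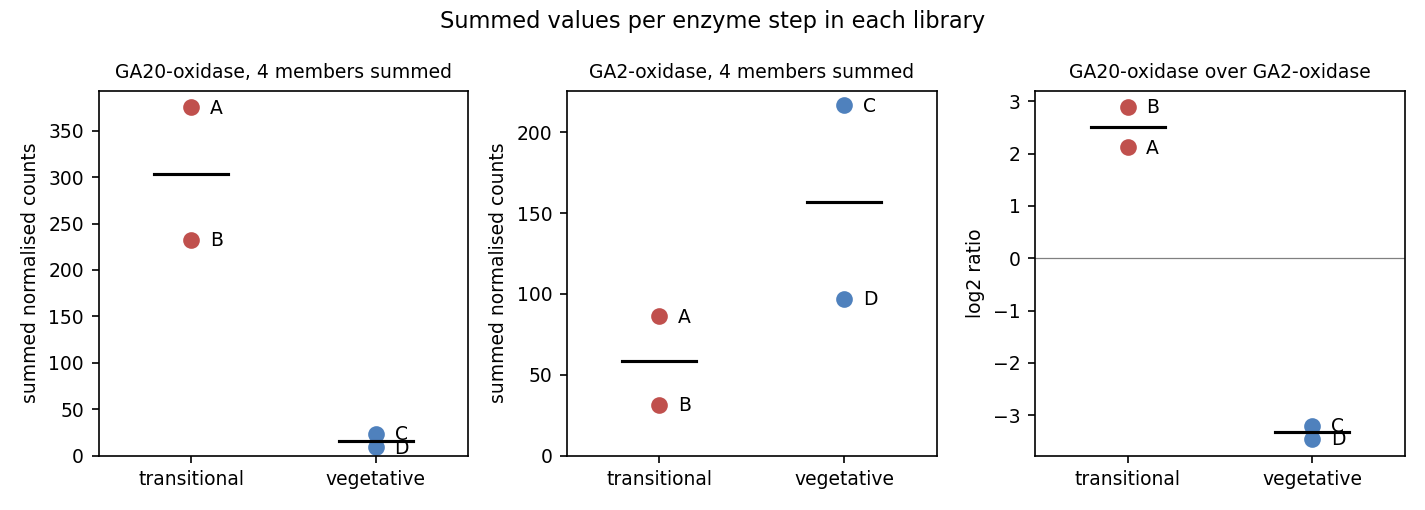
Summed normalised counts (linear axes, from 0) of the 4 GA20-oxidase and the 4 GA2-oxidase identifiers, and the log2 ratio of these sums, in each library, with transitional A and B in red, vegetative C and D in blue and a bar at each group mean. The ratio lies at 2.12 and 2.89 in the transitional libraries and at -3.21 and -3.46 in the vegetative ones. Values are not corrected for gene length, so the sign of the ratio has no meaning of its own.

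**Figure D4:**
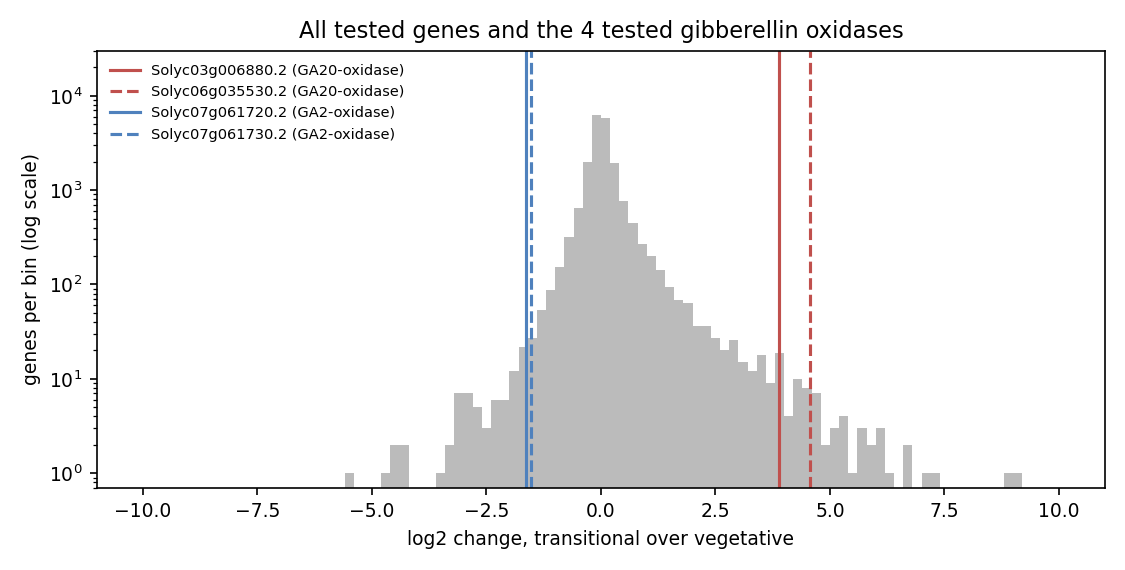
Distribution of the log2 change (horizontal axis) over the 19607 tested genes (vertical axis, genes per bin, log scale), with a line at each tested member. The GA20-oxidases, ranked 33 and 65 from the top, lie in the far upper tail, and the GA2-oxidases, ranked 72 and 85 from the bottom, in the lower tail.

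The tested members shared an order among replicates. All 4 were higher in library A than in B among the transitional ones, and in C than in D among the vegetative ones, where 52.6% and 49.1% of the tested genes did so. More than 2-fold differences on the log2(value + 1) scale were found for 2 of the 4 members between A and B and for 3 of the 4 between C and D, against 4.08% and 3.26% of tested genes. Solyc03g006880.2 had a C over D ratio of 2.54 on 9 and 5 reads (exact counting interval 0.764 to 9.64). That of Solyc06g035530.2 was 3.76 on 8 and 3 reads (0.903 to 22.0). Both intervals include 1, so these differences cannot be told from counting error. Solyc07g061720.2 rested on 13 and 4 reads in A and B (ratio 3.26, 1.01 to 13.7). Solyc07g061730.2 differed beyond counting error in both pairs. The shares of all tested genes were not matched for depth. Values of the marker lists in the same libraries are given beside this. By limma, 2.7% of all tested genes rose and 1.19% fell, and the counts of these lists are to be read beside those shares. Of the 7 tested leaf photosynthesis identifiers, 0 rose and 0 fell by limma, edgeR or DESeq2 (1 lower at an unadjusted p under 0.05 by limma). All 7 stood higher in A than in B, 1 of them at 975 in A against 152 in B, and 0 higher in C than in D. The leaf sums were 8863 and 5502 in transitional A and B and 6472 and 8004 in vegetative C and D. Of the 5 flower meristem identifiers, 4 stood higher in A than in B and 3 higher in C than in D, 1 of them at 138 in C against 9.78 in D. Of the 6 tested wound and jasmonate identifiers, listed as markers of handling, 4 rose and 0 fell, 3 stood higher in A than in B and 1 higher in C than in D, with sums of 13518 and 10270 in transitional A and B and 5280 and 5673 in vegetative C and D. The part of leaf or flower tissue, or of handling, in the values of the gibberellin oxidases was not tested.

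Of the rest of the pathway, 3 of 9 listed identifiers rose, where 2.7% of all tested genes did. The list held 9 identifiers recalled from published tomato nomenclature, 5 for the steps before GA20-oxidase and 4 for the receptors and the DELLA protein, a repressor that the hormone and its receptor remove; their places in it were not checked, as the sources used here hold no name for them. All 9 were tested, and 0 fell by limma (0 also by edgeR and DESeq2, with 1 lower at an unadjusted p under 0.05 by limma, as 7.91% of tested genes were). Their median log2 change was 0.55, against 0.0052 over all tested genes. Among the earlier steps, Solyc12g006460.1 rose, with 1094 and 1025 normalised counts in transitional libraries A and B, against 619 and 687 in vegetative C and D (log2 change 0.70, SE 0.09, limma adjusted p = 0.00971). The other 4 identifiers of those steps did not pass the test, with log2 changes from -0.24 to 0.93.

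On the response side, Solyc09g074270.2 and Solyc06g008870.2, both entered as receptors, rose. The other identifiers listed for the receptors and the DELLA protein did not pass the test, with log2 changes of -0.00015 and 0.13. Solyc09g074270.2 had 1186 and 1005 normalised counts in transitional libraries A and B, against 304 and 298 in vegetative C and D (log2 change 1.86, SE 0.11, limma adjusted p = 0.001). Solyc06g008870.2 had 368 and 301, against 181 and 190 in vegetative C and D (log2 change 0.84, SE 0.14, limma adjusted p = 0.0233). All values of these 2 identifiers were higher in the transitional libraries, as was the case for 25% of all tested genes. Without either vegetative library none of the 9 was called, and 2 were without transitional A.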

How the data were processed

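RNA sequencing libraries were made with an RNeasy and a TruSeq kit, per the labels' protocols. For each gene and library the authors deposited 1 normalised signal value. HTSeq 0.6.1p1, DESeq2 1.6.3 and TopHat2 2.0.10 are listed, per the submitters' processing notes, with no role. Genome build, annotation and use of strand: not given in the sources used here. Of the values, 100% in every library were whole multiples of 1 step (relative tolerance 1e-06), so whole reads were recovered (size factors 0.987 and 0.988 for A and B, 0.725 and 1.02 for C and D). The titles letter the vegetative libraries C and D, whereas descriptions and columns use A and B; the titles' letters are used.

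limma 3.58.1 (trend, R 4.3.3) was run on log2(value + 1) for all genes with a mean of at least 5, with stage as the only term, two-sided, with Benjamini-Hochberg adjustment over the 19607 genes tested. A fold change on this scale understates that of low genes. Residual degrees of freedom were 2 and prior ones 5.18. Counting intervals are exact (SciPy 1.17.1) and cover counting error only, since the labels name no molecular identifiers. Replicates differed by more than counting gives (chi-square per degree of freedom 15.4 for A against B and 3.41 for C against D). Each library was taken as 1 replicate, though the labels do not say whether these are independent. Alternatives were edgeR 4.0.16 and DESeq2 1.42.0 on the recovered reads, other scalings, filters and pseudocounts, and leaving out each library. The fits were tested on simulated data with 1 fixed spread between replicates for all genes. That does not cover a gene with replicates as far apart as those of Solyc07g061730.2. Members and lists were chosen with earlier results of these data known. The genes named are all 10 members and, from the other lists, those on which a result turns. Identifiers after the GA2-oxidase pair were added after their values were seen. No sequence is printed. The mutant of the study's title is not analysed here.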

Additional observations from a re-analysis of the deposited data

How the results depend on the processing

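With all 4 libraries, limma called 529 genes higher and 233 lower, edgeR 485 and 207, and DESeq2 597 and 317. Without a filter on low values limma called 6 genes higher and 1 lower, 0 members higher and 0 other pathway identifiers higher, while the prior degrees of freedom were 2.58 in place of 5.18. The GA20-oxidase pair was called in the other 7 alternatives that kept all libraries, with log2 changes of 3.37 to 4.02 for Solyc03g006880.2 and 3.89 to 4.69 for Solyc06g035530.2. The GA2-oxidase pair was called in none of those in which it was tested, with adjusted p from 0.198 to 0.477 for Solyc07g061720.2, which a filter of 1 CPM in 2 libraries removed, and from 0.0802 to 0.377 for Solyc07g061730.2. When 1 library was left out, limma called 0 to 776 genes higher and 0 to 478 lower, 0 to 2 members higher and 0 to 1 lower, and 0 to 3 other pathway identifiers higher; these fits take the spread of the stage with 1 library from the other stage. No change of a tested member reversed. The log2 ratio of summed values was 4.36 to 4.37 for GA20-oxidases and -1.48 to -1.47 for GA2-oxidases under TMM or library size scaling, and 3.65 to 5.07 and -2.21 to -0.75 without 1 library. No paired analysis was possible because the titles share no replicate letter between the stages. With 3 to 9 reads behind each vegetative value of the GA20-oxidase pair, its exact fold is poorly fixed by depth.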

Other observations

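The 4 identifiers directly after the adjacent GA2-oxidase pair in the order of the table were higher in the transitional libraries, where the pair itself was lower. The 4 consecutive identifiers from Solyc07g061740.2 to Solyc07g061770.2 all had transitional values above both vegetative ones, as had 25% of all tested genes, and limma called 3 of them higher, as it did 2.7% of tested genes. These 4 were picked after their values were seen. Of 9 neighbours within 5 identifiers of Solyc07g061720.2, only these 4 were tested, so nothing can be said of those before the pair. Solyc07g061750.2 had 106 and 92.1 normalised counts in transitional libraries A and B, against 22.1 and 13.7 in vegetative C and D (log2 change 2.44, SE 0.31, limma adjusted p = 0.0082). Solyc07g061760.1 had 54.7 and 46.5 in transitional A and B, against 19.3 and 14.7 in vegetative C and D (log2 change 1.53, SE 0.31, limma adjusted p = 0.0442). Solyc07g061770.2 had 31.4 and 34.4, against 5.52 and 2.93 in vegetative C and D (log2 change 2.74, SE 0.46, limma adjusted p = 0.0226). Solyc07g061740.2 was not called, with 23.3 and 12.1 in transitional A and B and 5.52 and 7.83 in vegetative C and D. The next identifier, Solyc07g061780.2, had 4964 and 4923 in transitional A and B, against 5659 and 5356 in vegetative C and D, and was not called (adjusted p = 0.352). Around Solyc03g006880.2, 1 of 8 tested neighbours within 5 identifiers on either side rose and 1 fell, and their median log2 change was 0.22. Around Solyc06g035530.2 only 1 of 10 neighbours was expressed enough to be tested, with a log2 change of -0.41. The files do not pair these neighbours with names, and distances between genes are not given.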
